A study of Homo sapiens with 6 samples.

Results

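The hypoxia-inducible factor (HIF) pathway was followed through 33 genes: the HIF subunits, the oxygen sensors that act on them, and hypoxia targets outside glycolysis. All 33 were found by symbol among 60609 gene identifiers, and 31 held enough reads to be tested. They were measured by RNA sequencing of 6 libraries from HEK293, an established human embryonic kidney cell line. The libraries comprised 3 libraries of STAT5B knockout cells (KO), which the labels describe as CRISPR/Cas9 clones, biallelic by sequencing and western blot, and 3 libraries of wild-type cells (WT). The culture protocol also speaks of GS knockout clones, and every sample title holds the word Sham; neither term is explained in the labels, and groups were taken from the genotype. STAT5B is a transcription factor switched on by cytokine and growth hormone receptors, and the series set its absence against the wild-type line. Both groups grew in a mixture of air and CO2, and the labels name no low-oxygen treatment for either. The labels do not say how many clones the 3 KO libraries came from or whether libraries of a group were separate cultures, so every p-value here rests on library-to-library spread that may be technical.

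In air, prolyl hydroxylases of the EGLN family mark the HIF alpha subunits with hydroxyl groups, and the VHL protein then has the marked subunits destroyed. When oxygen is short the alpha subunit escapes, pairs with ARNT and binds short DNA elements with the core RCGTG. The genes switched on in this way supply blood vessels, remodel collagen, remove mitochondria, slow growth and store lipid. Much of this control acts on the stability of the alpha protein, which RNA levels do not measure.

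Promoters of 26 of the 33 genes were in the RefSeq table (GRCh38.p14) and were searched over the 250 bases before the RefSeq start. The table had no entry for ANKZF1, BNIP3L, HILPDA, NDRG1, STC1, VEGFA or VHL. The letters ACGTG, on either strand, stood in 17 of the 26 promoters (65.4%), against 18.6% of all 27167 promoters and 23.5% of the 11177 promoters of tested genes. The letters GCGTG stood in 13 of them (50%), against 31.8% of all promoters and 46.2% of those of tested genes. CACGTG, which overlaps ACGTG on both strands, stood in 7 (26.9%), against 6.46% of all promoters and 8.96% of those of tested genes. These are matches of letters and not measured binding sites. The list was drawn up from known hypoxia genes, and the shares were not tested. Of the 17 promoters with ACGTG, 5 are printed to show its place in members of different roles, as the 180 bases before the start, read 5′ to 3′ on the strand of the gene. FAM162A and BNIP3 are mitochondrial targets, EGLN1 is a sensor, and MIR210HG and CA9 are classical markers of hypoxia, of which CA9 was almost silent here. Capitals mark ACGTG or its reverse complement CACGT.
FAM162A promoter, chr3:122384002-122384181, plus strand: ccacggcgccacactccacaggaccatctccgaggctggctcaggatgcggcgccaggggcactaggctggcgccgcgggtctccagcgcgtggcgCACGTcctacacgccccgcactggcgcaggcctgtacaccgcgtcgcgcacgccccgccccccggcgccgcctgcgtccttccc
EGLN1 promoter, chr1:231422288-231422467, minus strand: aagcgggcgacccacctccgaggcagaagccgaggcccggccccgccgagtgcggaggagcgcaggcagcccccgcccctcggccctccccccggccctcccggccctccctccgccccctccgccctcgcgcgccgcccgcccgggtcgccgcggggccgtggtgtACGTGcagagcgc
BNIP3 promoter, chr10:131981924-131982103, minus strand: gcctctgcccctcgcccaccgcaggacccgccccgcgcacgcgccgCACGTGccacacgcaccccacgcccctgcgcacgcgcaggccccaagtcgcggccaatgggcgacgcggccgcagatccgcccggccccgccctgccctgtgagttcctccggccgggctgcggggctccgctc
MIR210HG promoter, chr11:568458-568637, minus strand: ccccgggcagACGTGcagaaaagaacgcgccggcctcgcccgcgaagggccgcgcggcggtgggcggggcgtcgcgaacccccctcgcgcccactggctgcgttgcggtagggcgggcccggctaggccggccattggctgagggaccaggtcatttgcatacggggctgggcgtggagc
CA9 promoter, chr9:35673748-35673927, plus strand: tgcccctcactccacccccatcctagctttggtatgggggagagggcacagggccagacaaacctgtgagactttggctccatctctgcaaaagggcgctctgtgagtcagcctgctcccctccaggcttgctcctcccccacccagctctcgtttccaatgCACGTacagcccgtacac
In FAM162A the marked letters lay 84 to 80 bases before the start, in EGLN1 13 to 9, in MIR210HG 170 to 166 and in CA9 18 to 14. In BNIP3 the letters form the palindrome CACGTG, 134 to 129 bases before the start. MIR210HG is the host transcript of the hypoxia-induced microRNA miR-210, whose main mature strand is printed with its seed, bases 2 to 8, in capitals.
hsa-miR-210-3p, chr11:568112-568133, minus strand: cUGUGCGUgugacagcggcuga
The hairpin gene MIR210 itself held 0 counts in the 6 mRNA libraries, so the mature microRNA was not measured.

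The libraries held 17494958 to 21099813 estimated counts in KO and 17686407 to 20279181 in WT. STAT5B itself had 63.1, 61.8 and 60.5 CPM (counts scaled to a common library size) in KO, against 70.1, 64.6 and 69.4 CPM in WT. Its log2 fold change of -0.14 passed the test (SE 0.047, edgeR adjusted p = 0.0468), and a whole-gene count does not check a small edit of the gene. Of 11 markers fixed for HEK293, 10 were tested, 2 rose (EYA1 by a log2 fold change of 1.12 and VIM by 0.12) and 2 fell (NEFM at -1.14 and CDH2 at -0.25). These were 20% each way, against 12.1% of all genes that rose and 11.4% that fell. The 11 markers summed to 935.7 to 954.1 TPM (transcript abundance corrected for length) in KO and 1063 to 1094 TPM in WT. PAX8 was at or near 0, with 0 counts in KO and 1 in WT. None of 10 markers of blood, endothelium, liver, fibroblasts, smooth muscle and mature nephron had enough reads for a test. CD3E, CDH5, PTPRC and UMOD were at 0, and the 10 summed to 0.352 to 0.973 TPM in KO and 0.246 to 0.449 TPM in WT. In bulk samples, fewer cells of a type and less RNA per cell cannot be told apart.

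Among the 31 tested members, 14 rose in KO (45.2%), 3 fell (9.68%) and 14 did not pass the test. By the same test (edgeR quasi-likelihood, Benjamini-Hochberg adjusted p under 0.05 over 15958 genes), 12.1% of all genes rose and 11.4% fell. The median log2 fold change was 0.27 over the members and 0.0063 over all tested genes. The members were chosen with earlier results of these data known, so these shares are a description and were not tested. The risers were ARNT, EGLN1, BHLHE40, ANKZF1, VEGFA, STC2, P4HA1, PLOD2, BNIP3, BNIP3L, FAM162A, DDIT4, HILPDA and PPFIA4. Their rises were modest, at 1.17 to 1.79 fold with a median of 1.39. EPAS1, HIF1AN and PLOD1 fell, to 0.83 to 0.89 of the WT level. Of the 8 subunits and sensors 2 rose and 2 fell, whereas of the 23 tested targets 12 rose, 1 fell and 10 were not called. All 3 KO values lay above all 3 WT values for 13 members, against 19.9% of all genes, and below them for 5 members, against 18.7% of all genes. Of the 14 risers, 11 had such separate groups, and BNIP3, BNIP3L and DDIT4 overlapped.

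**Figure D1:**
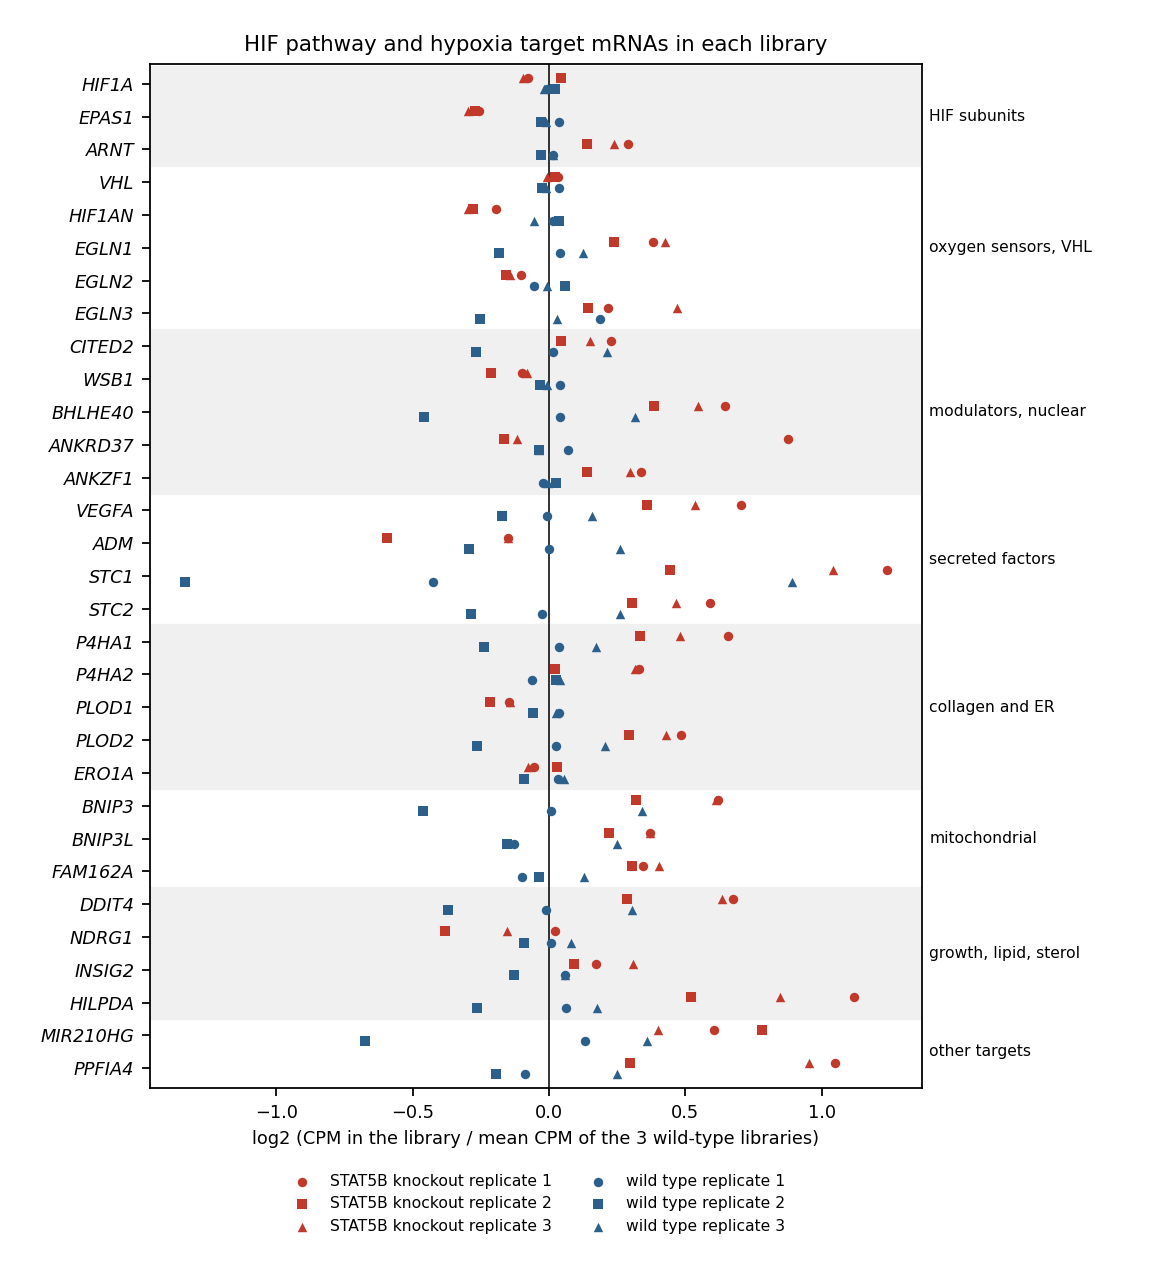
Each row is 1 of the 31 tested genes, and each symbol is the log2 ratio of its CPM in 1 library to the mean CPM of the 3 WT libraries, with KO symbols above WT symbols and 1 symbol shape per replicate number. The KO symbols of HILPDA, VEGFA, FAM162A, P4HA1 and EGLN1 lie wholly to the right of the WT symbols, while those of HIF1A and VHL overlap them.

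The number of risers varied with the libraries and the scale used. Without KO replicate 1, 9 members were called higher. With the deposited effective lengths as offsets, 6 members were called higher and none lower by edgeR (1 lower at an unadjusted p under 0.05), against 5.58% and 5.28% of all genes. The 6 were EGLN1, VEGFA, P4HA1, PLOD2, FAM162A and HILPDA. Calls over all genes also fell in number with these offsets, to 1734 against 3742 without them. Of the 8 risers no longer called, the log2 fold changes of BNIP3 and BNIP3L stayed at 0.52 and 0.32, and those of ARNT, BHLHE40 and DDIT4 were 0.23, 0.50 and 0.52. ANKZF1 moved to 0.20, PPFIA4 to 0.50 and STC2 to -0.046. By limma on log2(TPM + 1) only HILPDA, VEGFA and FAM162A were called higher, and none lower (5 lower at an unadjusted p under 0.05). Over all 15958 genes 1623 were called on that scale, higher or lower. The median log2 fold change of all genes was -0.059 there, against 0.006 in the main test. With offsets for length and GC content 14 were called higher and 3 lower, against 10.2% and 10.3% of all genes. These 3 were not the same as in the main test. PLOD1 was no longer called (-0.14, edgeR adjusted p = 0.0531), and WSB1 was called lower (-0.18, edgeR adjusted p = 0.0323). HILPDA, VEGFA and FAM162A passed in all 18 alternatives other than a test against a 1.2-fold change, which HILPDA and VEGFA passed as well. That test called 2 members higher and none lower (5 lower at an unadjusted p under 0.05 in the test of any change), against 0.971% and 0.877% of all genes.

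**Figure D2:**
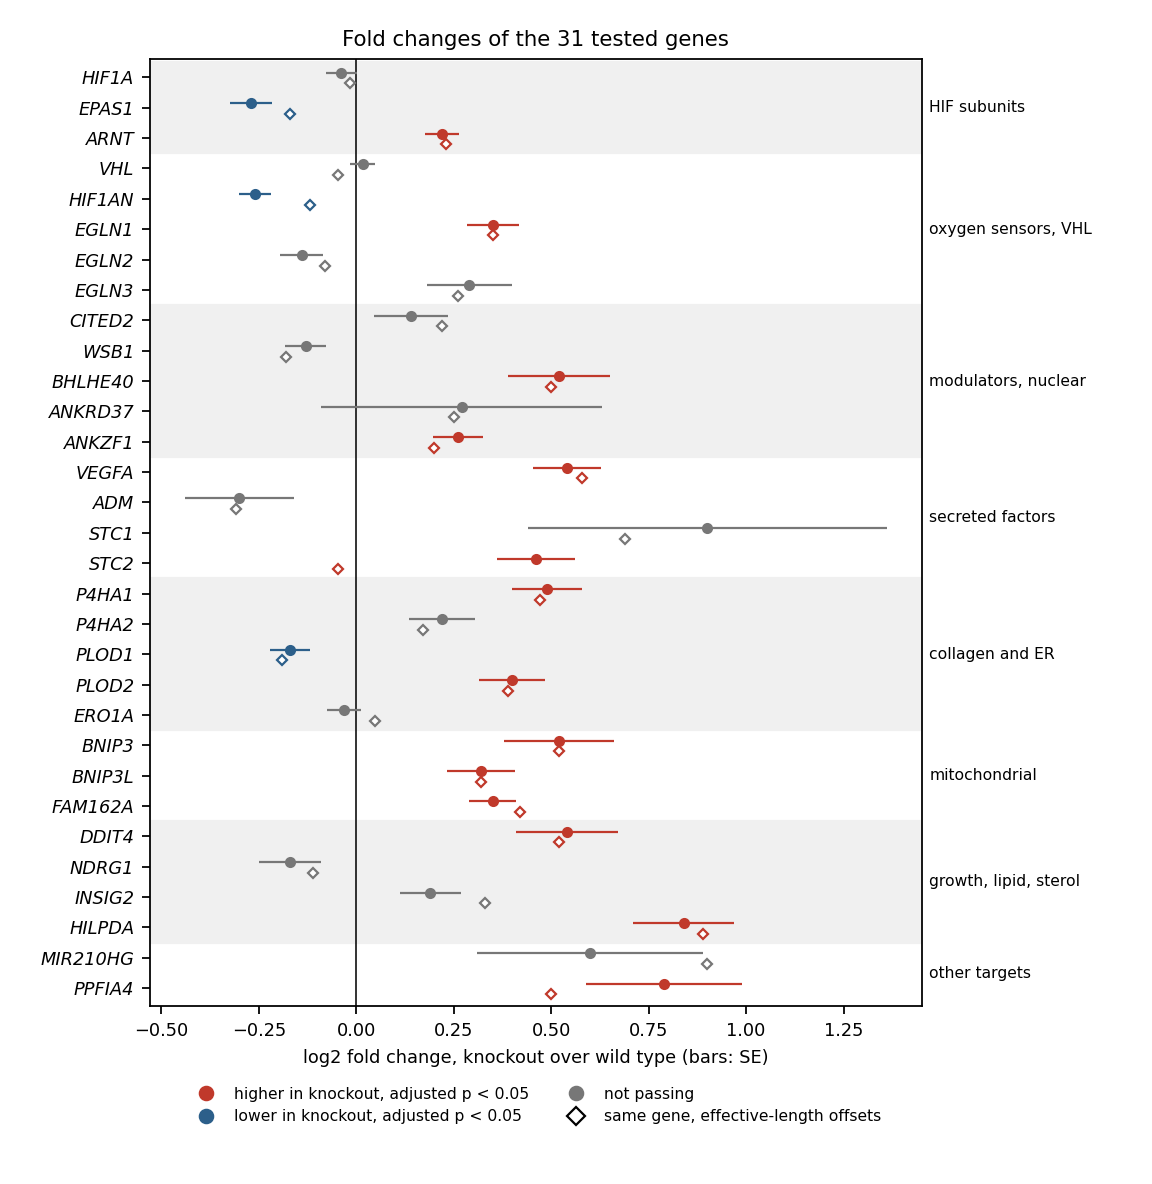
Log2 fold change of KO over WT for the 31 tested genes, grouped by role, with filled circles and SE bars for the main test and open diamonds for the fit with effective-length offsets. Red marks genes that rose, blue those that fell and grey those that did not pass; among the coloured genes HILPDA lies farthest right at 0.84 and EPAS1 farthest left at -0.27, and the diamond of STC2 falls back to -0.046.

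In the main test the RNAs of the alpha and beta subunits did not move together. HIF1A, the alpha subunit found in most cells, had 159.0, 173.3 and 157.3 CPM in KO and 167.1, 170.6 and 165.9 CPM in WT. The groups overlapped, and the log2 fold change of -0.039 did not pass (SE 0.04, edgeR adjusted p = 0.521). EPAS1, which encodes the second alpha subunit HIF-2alpha, had 30.3, 30.0 and 29.5 CPM in KO, against 37.1, 35.5 and 35.9 CPM in WT. Every KO value was below every WT value, and EPAS1 fell to 0.83 of its WT level (log2 fold change -0.27, SE 0.054, edgeR adjusted p = 0.00242). With effective-length offsets the change was -0.17 and not called (edgeR adjusted p = 0.305). ARNT, the shared beta subunit, had 102.0, 92.0 and 98.5 CPM in KO, against 84.3, 81.9 and 84.3 CPM in WT. Its groups lay apart and it rose 1.17-fold (log2 fold change 0.22, SE 0.044, edgeR adjusted p = 0.00221). This call ended with effective-length offsets (0.23, edgeR adjusted p = 0.103). The tested genes within 5 Mb of ARNT, on chromosome 1, had a median of 0.21, and 49.1% of these 169 had a log2 fold change as high. On the TPM scale EPAS1 made up 11.9 ± 0.336% of the summed alpha subunit RNA in KO and 13.1 ± 0.856% in WT (SD, n = 3 each).

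Of the 4 hydroxylases and VHL, EGLN1 rose and HIF1AN fell. EGLN1, the main prolyl hydroxylase in air and itself a HIF target, lies at chr1:231363751-231425044 on the minus strand of hg38, with the ACGTG letters of its promoter printed above. It had 159.6, 144.5 and 164.8 CPM in KO, against 126.2, 107.9 and 133.8 CPM in WT. The lowest KO value was above the highest WT value, and EGLN1 rose 1.27-fold (log2 fold change 0.35, SE 0.066, edgeR adjusted p = 0.00171). On log2(TPM + 1) the change was 0.28 and not called (limma adjusted p = 0.0738). HIF1AN, the asparagine hydroxylase that blocks HIF from its coactivators, had 101.2, 95.3 and 94.1 CPM in KO, against 116.8, 118.7 and 111.5 CPM in WT. The groups did not overlap, and it fell to 0.84 of WT (log2 fold change -0.26, SE 0.041, edgeR adjusted p = 4.78e-04). Effective-length offsets took this to -0.12 with an adjusted p of 0.192. HIF1AN shares 2.33% of its exon bases with NDUFB8 on the other strand, and reads of such partners cannot be told apart where counting did not use strand.

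The other hydroxylases and VHL did not pass. EGLN2, a prolyl hydroxylase not driven by hypoxia, had 34.4, 33.1 and 33.4 CPM in KO and 35.5, 38.4 and 36.7 CPM in WT. All KO values were below all WT values, yet the change of -0.14 was not called (SE 0.055, edgeR adjusted p = 0.094), and 30.6% of its exon bases are shared with the readthrough gene RAB4B-EGLN2. EGLN3, a prolyl hydroxylase strongly induced by hypoxia in many cells, had 16.6, 15.8 and 19.8 CPM in KO and 16.3, 12.0 and 14.6 CPM in WT. The groups overlapped (log2 fold change 0.29, SE 0.11, edgeR adjusted p = 0.0858). Without WT replicate 1 EGLN3 was called, at 0.39 with an adjusted p of 0.0435. VHL, the substrate receptor of the ubiquitin ligase for hydroxylated HIF, had 156.1, 155.0 and 151.9 CPM in KO and 156.4, 150.0 and 151.5 CPM in WT. Its groups overlapped and its log2 fold change was 0.016 (SE 0.033, edgeR adjusted p = 0.773). Per length, EGLN2 made up 29.4 ± 0.266% of the summed TPM of EGLN1 and EGLN2 in KO and 36.0 ± 3.2% in WT (SD, n = 3 each). EGLN1, EGLN2 and EGLN3 together reached 122.3 ± 8.09 TPM in KO and 110.5 ± 7.88 TPM in WT.

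Among targets that modify transcription or protein turnover, 2 of 5 rose. BHLHE40, a repressor that also acts in the circadian clock, had 54.0, 45.0 and 50.4 CPM in KO, against 35.5, 25.1 and 42.9 CPM in WT. The groups lay apart by a narrow margin, and BHLHE40 rose 1.44-fold (log2 fold change 0.52, SE 0.13, edgeR adjusted p = 0.0107). The log2 fold change was 0.52 under DESeq2 (adjusted p = 0.0819), 0.50 with effective-length offsets (edgeR adjusted p = 0.0924) and 0.46 without KO replicate 1 (0.0608), and was not called in these 3. ANKZF1, a factor that releases stalled chains from ribosomes, had 34.6, 30.2 and 33.7 CPM in KO, against 27.0, 27.9 and 27.3 CPM in WT. It rose 1.2-fold with separate groups (log2 fold change 0.26, SE 0.064, edgeR adjusted p = 0.00990), and was not called with effective-length offsets (0.20, adjusted p = 0.170) or without KO replicate 1 (0.22, adjusted p = 0.0586). CITED2, which competes with HIF for the coactivators CBP and p300, had 41.3, 36.4 and 39.2 CPM in KO and 35.7, 29.3 and 40.9 CPM in WT. The groups overlapped (0.14, edgeR adjusted p = 0.325). WSB1, a ubiquitin ligase substrate receptor, had 47.3, 43.8 and 47.9 CPM in KO and 52.2, 49.5 and 50.5 CPM in WT. All KO values were lower and the change of -0.13 was not called (SE 0.052, edgeR adjusted p = 0.0849), beside a median of -0.17 over the tested genes within 5 Mb. With offsets for length and GC content WSB1 was called lower, at -0.18 (edgeR adjusted p = 0.0323). ANKRD37, a small ankyrin-repeat protein, was low at 0.72 to 1.48 CPM in KO and 0.787 to 0.846 CPM in WT, with 35.2% of its exon bases opposite UFSP2. Its log2 fold change of 0.27 was not called (edgeR adjusted p = 0.645).

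Of the secreted factors, VEGFA and STC2 rose by read count. VEGFA, the growth factor for blood vessels, lies at chr6:43770184-43786487 on the plus strand. It had 62.7, 49.4 and 55.8 CPM in KO, against 38.3, 34.2 and 42.9 CPM in WT. Every KO library exceeded every WT library, and VEGFA rose 1.45-fold (log2 fold change 0.54, SE 0.088, edgeR adjusted p = 5.69e-04). Over the alternatives other than the 1.2-fold test its log2 fold change was 0.45 to 0.62 and its adjusted p at most 0.0483. ADM, which encodes the vasodilator adrenomedullin, had 12.8, 9.41 and 12.8 CPM in KO and 14.2, 11.6 and 17 CPM in WT. The groups overlapped, and the log2 fold change was -0.30 (SE 0.14, edgeR adjusted p = 0.153). STC1, a calcium-regulating hormone, had 22, 15 and 19 counts in KO and 7, 4 and 20 counts in WT. WT replicate 3 lay inside the KO range, the log2 fold change was 0.90 (SE 0.46, edgeR adjusted p = 0.187), and without that library it was 1.73 and called (adjusted p = 0.0297). ANGPTL4, a lipase inhibitor, had 0 counts in KO and 1 count in WT and was not tested.

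STC2, a secreted relative of STC1, differed between the count scale and the length-corrected scale. It lies at chr5:173314713-173329503 on the minus strand. It had 192.1, 157.5 and 176.0 CPM in KO, against 125.2, 104.6 and 152.7 CPM in WT. The groups were separate, and by counts STC2 rose 1.37-fold (log2 fold change 0.46, SE 0.10, edgeR adjusted p = 0.00462). In TPM it had 86.1, 70.8 and 72.1 in KO, against 82.4, 66.4 and 98.9 in WT. On that scale the groups overlapped, at 76.3 ± 8.47 TPM in KO and 82.5 ± 16.3 TPM in WT (SD, n = 3 each). The deposited effective length, an estimate made for each library of the transcript length open to reads, was 3418, 3345 and 3793 bases in KO, against 2492, 2565 and 2504 bases in WT. This difference of 0.48 on the log2 scale was matched or exceeded by 295 of the 15958 tested genes (1.85%), and the median size over all of them was 0.032. With effective-length offsets the log2 fold change of STC2 was -0.046 (edgeR adjusted p = 0.862), and on log2(TPM + 1) it was -0.098 (limma adjusted p = 0.690). More reads fell on STC2 in KO, over a longer estimated transcript. The values do not show which isoforms carried them, and how the effective lengths were estimated was not tested.

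**Figure D3:**
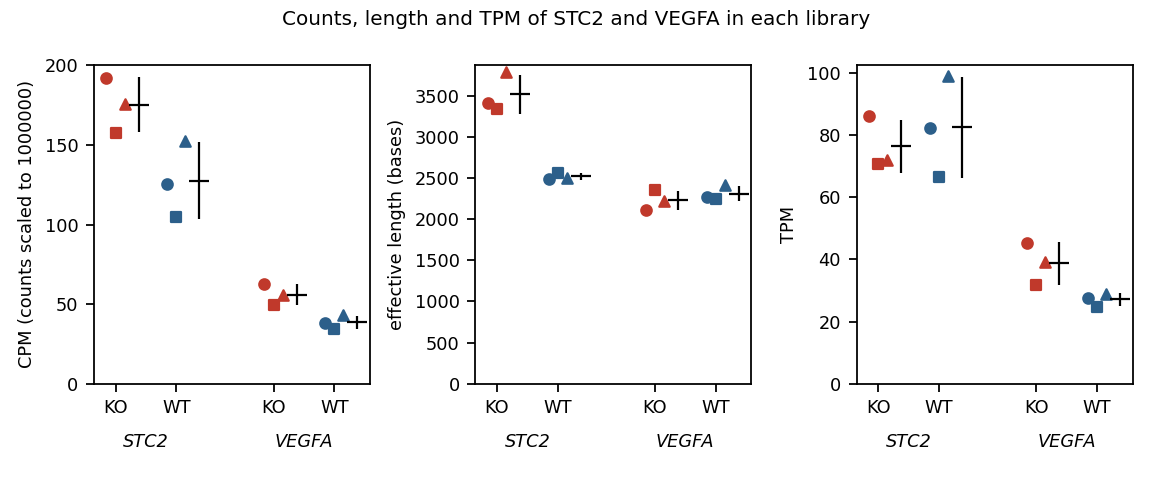
CPM, effective length in bases and TPM of STC2 and VEGFA in each library, with KO left of WT, 1 symbol per replicate and a bar for the mean and SD beside each group. For STC2, KO lies above WT in CPM and effective length and the groups overlap in TPM, whereas VEGFA keeps KO above WT in CPM and TPM.

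Of the collagen-modifying and endoplasmic reticulum enzymes, P4HA1 and PLOD2 rose and PLOD1 fell. P4HA1, a catalytic subunit of collagen prolyl 4-hydroxylase, had 103, 82.4 and 91.0 CPM in KO, against 66.9, 55.3 and 73.6 CPM in WT. The groups did not overlap, and it rose 1.41-fold (log2 fold change 0.49, SE 0.09, edgeR adjusted p = 0.00129). PLOD2, the lysyl hydroxylase of collagen telopeptides, had 162.1, 142.3 and 156.3 CPM in KO, against 118.0, 96.5 and 133.6 CPM in WT. Its groups were also apart, and it rose 1.32-fold (log2 fold change 0.40, SE 0.085, edgeR adjusted p = 0.00340). Both calls held with effective-length offsets (adjusted p = 0.0282 and 0.0471) and ended on log2(TPM + 1) (limma adjusted p = 0.0783 and 0.117). PLOD1, the lysyl hydroxylase of the collagen helix, had 41.6, 39.6 and 41.7 CPM in KO, against 47.2, 44.2 and 46.8 CPM in WT. It fell to 0.89 of WT with separate groups (log2 fold change -0.17, SE 0.052, edgeR adjusted p = 0.0310). This call was lost in 12 of 19 alternatives, which makes it the least stable of the 17 calls.

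P4HA2, the second catalytic subunit of the prolyl hydroxylase, had 26.8, 21.6 and 26.5 CPM in KO and 20.4, 21.7 and 21.9 CPM in WT. KO replicate 2 lay within the WT range, and the log2 fold change of 0.22 was not called (SE 0.084, edgeR adjusted p = 0.0768). Without that library the change was 0.32 and called (edgeR adjusted p = 0.00940). ERO1A, the oxidase that recharges disulphide formation in the endoplasmic reticulum, had 124.7, 132.1 and 123.0 CPM in KO and 132.6, 121.5 and 134.6 CPM in WT. Its groups overlapped (-0.032, SE 0.044, edgeR adjusted p = 0.654). The shares within each pair of enzymes were not tested. PLOD1 made up 19.3 ± 1.33% of PLOD1 and PLOD2 in KO and 26.4 ± 2.02% in WT, and P4HA2 made up 25.1 ± 0.993% of both catalytic subunits in KO and 29.4 ± 2.86% in WT (SD, n = 3 each). Of 8 partners in collagen hydroxylation 7 were tested, and 14.3% of these rose and 14.3% fell, against 12.1% and 11.4% of all genes. P3H1, a prolyl 3-hydroxylase on chromosome 1, rose by a log2 fold change of 0.35 (edgeR adjusted p = 2.30e-04), and P4HB, the beta subunit of the prolyl 4-hydroxylase, fell by 0.10 (adjusted p = 0.0421), a call that ended with effective-length offsets (-0.047, adjusted p = 0.403). P4HB was also not called on log2(TPM + 1) (-0.12, limma adjusted p = 0.0553). Nor was it called without KO replicate 1, KO replicate 2, WT replicate 1 or WT replicate 3 (edgeR adjusted p = 0.102 to 0.162). The tested genes within 5 Mb had a median of 0.21 around P3H1 (128 genes) and -0.17 around P4HB (102 genes), and 64.7% of the neighbours of P4HB had a change as low as its own.

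All 3 mitochondrial members rose. FAM162A, a mitochondrial protein linked to cell death in hypoxia, lies at chr3:122384176-122412334 on the plus strand, beside the promoter printed above. It had 55.4, 53.9 and 57.6 CPM in KO, against 40.7, 42.5 and 47.6 CPM in WT. The groups were far apart for their spread, and FAM162A rose 1.27-fold (log2 fold change 0.35, SE 0.06, edgeR adjusted p = 8.80e-04). Its change was 0.24 to 0.42 over the alternatives other than the 1.2-fold test, with an adjusted p of at most 0.0252. BNIP3, a receptor on the outer mitochondrial membrane that directs mitochondria to autophagy, had 65.4, 53.2 and 65.1 CPM in KO, against 42.8, 30.9 and 53.9 CPM in WT. KO replicate 2 lay just below WT replicate 3. BNIP3 rose 1.43-fold (log2 fold change 0.52, SE 0.14, edgeR adjusted p = 0.0150), but was not called by DESeq2 (0.52, adjusted p = 0.114), with effective-length offsets (0.52, 0.0992) or without KO replicate 1 (0.47, 0.0725). The 44 annotated pseudogene copies of BNIP3 held 175 counts in KO and 137 in WT, beside 3400 and 2444 counts for the gene, so reads shared with copies make its level somewhat uncertain.

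BNIP3L, the related receptor that clears mitochondria from maturing red cells, had 67.0, 60.4 and 67.0 CPM in KO, against 47.4, 46.5 and 61.6 CPM in WT. WT replicate 3 again reached into the KO range. BNIP3L rose 1.25-fold (log2 fold change 0.32, SE 0.087, edgeR adjusted p = 0.0174), and was not called under DESeq2 (0.32, adjusted p = 0.101) or with effective-length offsets (0.32, 0.0721). Nor was it called without KO replicate 1 (0.29, edgeR adjusted p = 0.0745), WT replicate 1 (0.26, 0.0881) or WT replicate 2 (0.24, 0.0946). BNIP3L shares 7.66% of its exon bases with PNMA2 on the other strand, which held 2812 counts in KO and 2289 in WT, and reads of both genes in that stretch cannot be told apart where counting did not use strand. Of 12 other genes of mitophagy all were tested, 3 rose (25%) and 1 fell (8.33%), against 12.1% and 11.4% of all genes. OPTN, an autophagy receptor, rose by a log2 fold change of 0.40 (edgeR adjusted p = 2.02e-04), MAP1LC3B by 0.17 (0.0113) and GABARAPL1 by 0.26 (0.0214); these last encode autophagosome proteins. PINK1, the kinase that marks damaged mitochondria, fell by 0.18 on the log2 scale (adjusted p = 0.0173). With effective-length offsets MAP1LC3B was at 0.15 (edgeR adjusted p = 0.130), GABARAPL1 at 0.27 (0.161) and PINK1 at -0.19 (0.0682), none of them called. Without KO replicate 1 or without WT replicate 2, only 1 of the 12 was called higher. GABARAPL1 was not called without WT replicate 1 either (0.24, edgeR adjusted p = 0.0702). PINK1 was not called without KO replicate 2 (-0.16, edgeR adjusted p = 0.0653) or WT replicate 2 (-0.17, 0.0601).

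Of 4 members acting on growth and lipid, HILPDA and DDIT4 rose. HILPDA, a lipid droplet protein that inhibits triglyceride breakdown, lies at chr7:128455849-128458418 on the plus strand. It had 38.9, 25.7 and 32.2 CPM in KO, against 18.7, 14.9 and 20.2 CPM in WT. The lowest KO value was well above the highest WT value, and the rise of 1.79-fold had the largest fold among the members that passed (log2 fold change 0.84, SE 0.13, edgeR adjusted p = 4.42e-04). HILPDA was called in all 19 alternatives, at 0.68 to 0.98 with an adjusted p of at most 0.0390 outside the 1.2-fold test. HILPDA-AS1, which shares 8.99% of the HILPDA exon bases, had 22 counts in KO and 10 in WT. A gene without a symbol, which shares 8.45% of them, had 77 counts in KO and 35 in WT. Both partners are annotated on the strand of HILPDA. DDIT4, an inhibitor of the growth kinase mTORC1, had 137.7, 105.2 and 133.9 CPM in KO, against 85.7, 66.7 and 106.5 CPM in WT. KO replicate 2 lay just below WT replicate 3. DDIT4 rose 1.45-fold (log2 fold change 0.54, SE 0.13, edgeR adjusted p = 0.00726), and was not called by DESeq2 (0.54, adjusted p = 0.0706) or with effective-length offsets (0.52, 0.0663).

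NDRG1, a growth-linked protein used as a marker of hypoxia, did not follow them. It had 71.5, 54.1 and 63.2 CPM in KO and 70.7, 66.1 and 74.4 CPM in WT. The groups overlapped and the log2 fold change was -0.17 (SE 0.079, edgeR adjusted p = 0.149). Without KO replicate 1 NDRG1 was called lower, at -0.27 with an adjusted p of 0.0221. INSIG2, which holds back the activation of sterol synthesis, had 23.8, 22.5 and 26.1 CPM in KO and 22, 19.3 and 22 CPM in WT. All KO values were higher by a small margin, and the change of 0.19 was not called (SE 0.079, edgeR adjusted p = 0.101). DDIT4, STC2, VEGFA, ERO1A and NDRG1 are also described as targets of ATF4, the transcription factor of amino acid and endoplasmic reticulum stress. By edgeR 3 of these 5 rose (60%), against 45.2% of the tested members and 12.1% of all genes. DESeq2 called 2 of the 5 higher, and STC2 was at -0.046 with effective-length offsets. A part of ATF4 was not tested.

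The last 3 members were scarce. PPFIA4, a scaffold protein of the liprin family, had 7.44, 4.42 and 6.97 CPM in KO, against 3.39, 3.15 and 4.28 CPM in WT. The groups were narrowly separate, and it rose 1.72-fold (log2 fold change 0.79, SE 0.20, edgeR adjusted p = 0.0125). The call ended without KO replicate 1 (0.64, edgeR adjusted p = 0.0685), without WT replicate 2 (0.69, 0.0589) and with effective-length offsets (0.50, adjusted p = 0.187). MIR210HG, the miR-210 host, had 2.04, 2.30 and 1.77 CPM in KO and 1.47, 0.839 and 1.72 CPM in WT. All KO values were higher, but the log2 fold change of 0.60 was not called (SE 0.29, edgeR adjusted p = 0.155). CA9, the carbonic anhydrase widely used as a marker of HIF activity, had 1, 2 and 0 counts in KO and 0 in each WT library. It was not tested, and 38.5% of its exon bases lie opposite ARHGEF39.

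Levels between genes were compared per length, in TPM. Over all 6 libraries the highest means were 114.5 TPM for DDIT4, 110.5 for VHL, 97.4 for FAM162A, 87.8 for PLOD2 and 82.7 for HIF1A. DDIT4 had 132.5 ± 20.1 TPM in KO and 96.5 ± 22.9 in WT, and VHL had 106.0 ± 0.299 in KO and 115.0 ± 3.04 in WT (SD, n = 3 each), so their order was not fixed beyond the spread. The lowest tested members were ANKRD37 at 2.35 TPM, MIR210HG at 2.33, PPFIA4 at 1.66 and STC1 at 0.344. In TPM, 8 members had separate groups with KO above, against 9.78% of all genes, and 4 with KO below, against 23.7%.

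The members shared an order of libraries inside each group, which the genotype does not set. Among the 14 risers, KO replicate 2 was the lowest KO library for 14 and WT replicate 2 the lowest WT library for 12. WT replicate 3 was the highest WT library for 13 of them, and KO replicate 1 the highest KO library for 11. Among all 31 tested members, KO replicate 2 and WT replicate 2 were each the lowest for 25 (80.6%), and KO replicate 1 and WT replicate 3 each the highest for 21 (67.7%). Over all tested genes, any 1 library was the highest or the lowest of its group for 31.8% to 35% of genes. The median difference of the 14 risers from their WT mean, in log2 CPM, was 0.63, 0.31 and 0.49 in the KO libraries and 0.015, -0.21 and 0.20 in the WT libraries. By these medians KO replicate 2 lay closer to WT replicate 3 than to KO replicate 1. Mitochondrial transcripts took 1.94%, 2.43% and 1.38% of counts in KO and 1.76%, 1.97% and 1.67% in WT, and were highest in KO replicate 2 and WT replicate 2. Their part in the result was not tested. The fit without KO replicate 2 and WT replicate 2 called 14 members higher, and the fit without KO replicate 1 and WT replicate 3 called 13. In the first, BNIP3L was no longer called (edgeR adjusted p = 0.0809) and P4HA2 was (0.0268). In the second, ANKZF1 was no longer called (edgeR adjusted p = 0.113). Over all genes, 2097 and 2380 were called higher or lower in these fits, against 3742 in the main test.

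**Figure D4:**
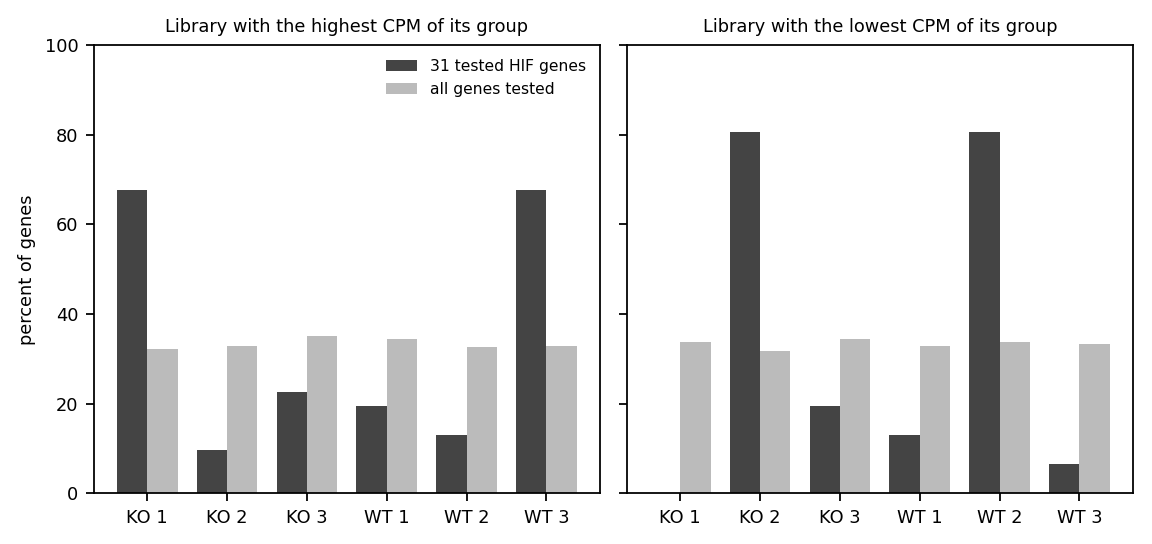
Bars give the percent of genes for which each library had the highest (left panel) or the lowest (right panel) CPM of its 3-library group, dark for the 31 tested members and light for all tested genes. KO replicate 1 and WT replicate 3 reach 67.7% on the left and KO replicate 2 and WT replicate 2 reach 80.6% on the right, while the light bars stay between 31.8% and 35%.

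Position on the genome moved with some results. The tested genes of chromosome 1 had a median log2 fold change of 0.15 (1574 genes), and 3 of the 14 risers lie there. The median over the tested genes within 5 Mb was 0.29 around EGLN1, where 38.9% of 72 neighbours had a change as large as its own. Around ARNT it was 0.21, and 49.1% of 169 neighbours had a log2 fold change as high. PPFIA4 stood above its surroundings, with a median of 0.18 and 4.23% of 71 neighbours as large. The part of the neighbourhood in the calls of EGLN1 and ARNT was not tested. Around the 11 risers on other chromosomes the median was between -0.059 and 0.071. It was -0.023 around HILPDA, -0.0064 around VEGFA and 0.015 around FAM162A, where 1.72%, 3.66% and 3.45% of neighbours had a log2 fold change as high.

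Other genes of the pathway were set beside the members, as lists also chosen with earlier results of these data known. Of 32 further HIF regulators 29 were tested, 6 rose (20.7%) and 5 fell (17.2%), against 12.1% and 11.4% of all genes. Their median log2 fold change was -0.013. ARNT2, a partner of the alpha subunits in nerve and kidney, had 40.8 ± 0.648 CPM in KO and 33.9 ± 1.82 in WT (log2 fold change 0.26, edgeR adjusted p = 0.00369). The median over 95 tested genes within 5 Mb of ARNT2 was 0.17, and 31.6% of them had a log2 fold change as high. The part of this neighbourhood in the result was not tested. RBX1, the RING subunit of the VHL ligase, rose by 0.26 (adjusted p = 0.00980), and NAA10, an acetyltransferase, by 0.11 (0.0262). EP300 and CREBBP, which encode coactivators of HIF, fell. EP300 had 188 ± 5.93 CPM in KO and 237 ± 10.6 in WT (log2 fold change -0.33, edgeR adjusted p = 4.07e-05), and CREBBP had 156 ± 6.98 in KO and 183 ± 9.06 in WT (-0.23, adjusted p = 0.00164, SD over 3 libraries). CITED1, a coactivator-binding relative of CITED2, fell by 0.33 on the log2 scale (adjusted p = 0.00527). With effective-length offsets RBX1 was at 0.22 (edgeR adjusted p = 0.143), NAA10 at 0.086 (0.204) and CREBBP at -0.22 (0.0949), none of them called. Nor were they called with offsets for length and GC content: RBX1 was at 0.17 (edgeR adjusted p = 0.0972), NAA10 at 0.061 (0.208) and CREBBP at -0.1 (0.0605). With single libraries left out, 2 to 4 of these regulators were called higher.

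Of 40 further hypoxia targets outside glycolysis 34 were tested, and 11 rose (32.4%, against 12.1% of all genes) with a median log2 fold change of 0.10. None fell by edgeR, DESeq2 or limma-voom, and 3 were lower at an unadjusted edgeR p under 0.05. LOX, the collagen and elastin cross-linking oxidase, had 60.8 ± 2.76 CPM in KO and 39.2 ± 4.97 in WT (SD, n = 3 each; log2 fold change 0.63, edgeR adjusted p = 5.09e-05). MXI1, an antagonist of MYC, rose by 0.45 (adjusted p = 6.59e-04), and NFIL3, a leucine zipper repressor, by 0.60 (6.68e-04). Of 21 glycolytic targets 20 were tested, 13 rose (65%) and 1 fell (5%), with a median of 0.23, against 12.1% and 11.4% of all genes. PKM, with a median of 0.16 over 87 tested genes within 5 Mb, rose by 0.43 (edgeR adjusted p = 4.31e-06), ENO2 by 0.77 (1.87e-05) and GAPDH by 0.26 (1.44e-04), and the glucose transporter gene SLC2A3 fell by 1.88 (0.00206) on the log2 scale. SLC2A3 was scarce, with 14, 10 and 7 counts in KO and 25, 36 and 58 in WT. It was not called with effective-length offsets (-1.29, edgeR adjusted p = 0.105) or by DESeq2 (-1.89, with no adjusted p). SLC2A1, a more abundant glucose transporter gene, had 86.1 ± 7.87 CPM in KO and 63.2 ± 9.99 in WT. SLC2A1 rose by 0.44 (edgeR adjusted p = 0.00316), with a median of 0.21 over 124 tested genes within 5 Mb.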

How the data were processed

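The 6 mRNA libraries of HEK293 were analysed, 3 KO and 3 WT, grouped by the genotype label. Per the submitters' processing notes, the tools were FastQC, fastp, DRAGEN and Picard and the build hg38, without versions. The annotation and the counting, including its use of strand, are not given here by any source. Per the file headers, each deposited file gives for every gene the estimated count, the TPM and an effective length. The deposited estimated counts, of which 7.12% to 7.64% were not whole, were rounded. The TPM values deposited by the authors, scaled to sum alike in each library, were used for levels between genes and as an alternative scale.

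Of 60609 identifiers 60295 had a symbol, and positions came from GENCODE 29 on the same build. In edgeR 4.0.16 (R 4.3.3), filterByExpr (minimum count 10, total 15) kept 15958 genes and left out 44651, TMM scaling followed, and the genotype effect was tested by quasi-likelihood with p-values adjusted by Benjamini and Hochberg over all genes kept. The biological coefficient of variation was 4.43%. CPM use the TMM-scaled totals, and precision rests on 3 libraries a group. Alternatives were RLE scaling, DESeq2 1.42.0, limma 3.58.1 (voom, log2(TPM + 1) and log2(TPM + 0.1)), no filter, a floor of 1 CPM in 3 libraries, effective-length offsets, offsets for length and GC content, a 1.2-fold test, the replicate number as a block, and each library left out. Leaving out the pairs named in the text was added after seeing the data.

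All members are named. From every other list up to 3 genes in each direction with the smallest p are named, or all that passed where at most 5 did. SLC2A1 was named in addition, as a glucose transporter gene beside SLC2A3. Members and lists were chosen with earlier results of these data known. Same-numbered libraries of both groups were not treated as pairs, since the labels give no shared origin and their deviations correlated at 0.010, 0.105 and 0.043.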

Additional observations from a re-analysis of the deposited data

How the results depend on the processing

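Over 19 alternatives and 31 members, 491 of 587 results kept their direction and their side of the threshold, 73 lost a call, 12 gained one and 11 changed sign. The 14 members called higher were 2 against a 1.2-fold change, 6 under offsets for effective length, 3 on each TPM scale (log2(TPM + 0.1) and log2(TPM + 1)), and 9 to 15 with 1 library left out. The 3 called lower were 0 under each of those 4 settings (edgeR or limma; at an unadjusted p under 0.05, 1 with effective-length offsets and 5 on each TPM scale), 5 with no filter and 2 to 3 with 1 library left out. For other regulators, 6 risers became 1 with effective-length offsets, 2 with length and GC offsets, 0 on both TPM scales, 3 without KO1 and WT3, 2 without KO2 and WT2, and 2 to 4 with 1 library left out. Their 5 fallers became 3 with effective-length offsets, with length and GC offsets and without KO1 and WT3, 2 without KO2 and WT2, and 3 to 5 with 1 library left out. For other hypoxia targets, 11 risers became 6 with effective-length offsets, 3 on both TPM scales and 6 to 11 with 1 library left out, and 0 fallers became 1 with no filter, with the replicate block or without KO1 and WT3, and 0 to 2 with 1 library left out. All genes called, 3742, became 1734 under effective-length offsets, 1622 and 1623 on log2(TPM + 0.1) and log2(TPM + 1), 2380 without KO1 and WT3, 2097 without KO2 and WT2, and 2618 to 3575 with 1 library left out. STC2 reversed to -0.046 with effective-length offsets, -0.099 on log2(TPM + 0.1) and -0.098 on log2(TPM + 1), where its effective length differed between groups. The other sign changes were in members never called: VHL at -0.048 with effective-length offsets, -0.013 with length and GC offsets and -0.12 on both TPM scales, ERO1A at 0.049 with effective-length offsets and 0.0075 without KO1 and WT3, and ANKRD37 at -0.16 without KO1 and WT3 and at -0.14 (without KO1) to 0.46 with 1 library left out. The median over all genes was -0.067 on log2(TPM + 0.1) and -0.059 on log2(TPM + 1), against 0.006 in the main test. Its part in the changes on these scales was not tested, nor was the cause of the other shifts. Under the replicate block, a number with no shared origin, 15 members were higher and 3660 genes were called. With no filter, p-values fell far (DDIT4 to 7.20e-31). Depth limited ANGPTL4, CA9, STC1, ANKRD37 and MIR210HG.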

Other observations

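The order of libraries seen in the members was compared with that in the other lists, as values with no test. Among 20 tested glycolytic targets, KO replicate 2 was the lowest KO library for 18 and WT replicate 2 the lowest WT library for 17. WT replicate 3 was the highest WT library for 18 of these genes, while the highest KO library was replicate 3 for 16. For the hypoxia targets outside glycolysis that are not members, KO replicate 2 was the lowest for 21 of 34 and WT replicate 2 for 25 of 34. Among 29 other regulators of HIF, KO replicate 2 was the lowest for 11 and WT replicate 2 for 10.

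In the promoters with an entry, ACGTG stood in 8 of 10 members called higher (80%) and in 7 of 14 members tested and not called higher (50%). The other letters differed less between these 2 sets. GCGTG stood in 60% against 50%, and CACGTG in 30% against 28.6%. These differences were not tested. VEGFA and HILPDA, with 2 of the steadiest rises, had no entry.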
